A study of Mus musculus with 43 samples.

Results

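Open chromatin in sorted frontal cortex neurons of enriched and standard-housed male mice could not be told apart at any region by the test used. The 5 regions of smallest p in each direction lay in distal and intragenic stretches. None was a promoter region, but those made up only 14088 of the 192834 regions tested. The comparison covered 13 of the series' 43 libraries, the ATAC-seq libraries that share the male count table, 6 from environmental enrichment (EE) and 7 from standard housing (SH), and all 192919 regions of that table. ATAC-seq marks DNA that a transposase can reach, so the count of fragments over a region is a measure of how open that region is. All mice were wildtype Swiss Webster males, were weaned at postnatal day 25 into one of the housings and were 2 months old at collection. SH cages held bedding and a nestlet. EE cages were larger and added more nesting material, a running wheel, a tube and toys that were swapped every few days. Frontal cortex was fixed with 1% paraformaldehyde for 20 minutes, and nuclei carrying NeuN, a protein of neuronal nuclei, were sorted with DAPI as the DNA stain, so both groups hold neurons of all cortical types together. The labels do not say whether replicates are separate animals or pools, so p-values measure the spread between these libraries, which may be technical in part.

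Enriched housing increases sensory, motor and social activity, and neurons that fire strongly switch on immediate early genes within minutes and then a second set of genes for growth factors, synaptic proteins and channels. Transcription factors of the first set, such as Fos, bind mostly to distal enhancers, while gene starts in neurons are often open whether or not the gene is being transcribed. Neurotrophin signalling through the receptor TrkB, encoded by Ntrk2, is among the pathways most often linked to experience in the cortex. The comparison asks whether enrichment alters accessibility in these neurons. In sorted bulk nuclei, a different share of a neuron type and a different openness per nucleus cannot be told apart.

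The libraries held 27.7 to 73.8 M counts (M, mega) each, and the regions had a median width of 821 bp and covered 222 Mb of mm10. Regions over the RefSeq promoters of neuronal genes were open: the mean level was 16.5 counts per M (CPM) at Rbfox3, which encodes NeuN, 42.4 CPM at Syt1, a synaptic vesicle calcium sensor, and 19.0 CPM at Slc17a7, the vesicular glutamate transporter of excitatory neurons. A tested region covered the RefSeq promoter of 13 of 14 upper-layer, 15 of 18 deep-layer and 19 of 22 GABAergic interneuron markers, against 5 of 14 oligodendrocyte and 4 of 13 microglia markers. None covered that of Mog, Olig2, Pdgfra or Cx3cr1, while 13 of 16 astrocyte markers had one (Slc1a3, 7.14 CPM), as did 13 of 15 striatal markers. So did 6 of 12 vascular and 4 of 7 oligodendrocyte precursor markers. The median level of the covered precursor promoters was 18.7 CPM, beside 28.1 for upper-layer, 10.7 for deep-layer and 6.90 for interneuron markers. The interneuron genes Gad1 and Gad2 had 3.15 and 3.38 CPM, below Slc1a3. The summed promoter levels of EE and SH libraries overlapped for each of the 9 marker lists. SH replicates 6 and 5 stood apart from the other libraries on the first and second principal components, which held 23.1% and 10.7% of the variance, and several of the shares below are also given without them.

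No region passed the test of housing. Of 192834 regions with enough counts, 0 (0%) had a Benjamini-Hochberg adjusted p under 0.05 in edgeR's quasi-likelihood test, and the smallest adjusted p was 0.215. At an unadjusted p under 0.05 there were 8745 regions (4.53%), of which 5039 (2.61% of those tested) were higher in EE and 3706 (1.92%) were lower. DESeq2 called 7 regions, 1 higher and 6 lower, and all 7 are described below. The estimates were narrow: the 95% confidence interval of the EE/SH ratio lay within 1.5-fold in either direction for 87.0% of regions and within 2-fold for 99.2%. Log2 fold changes (EE minus SH, as throughout) had a median of -0.0011 and an SD of 0.153, and 37 regions passed 1 in size. At this depth, most regions therefore leave room only for small differences, and a region outside these limits could still differ.

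**Figure D1:**
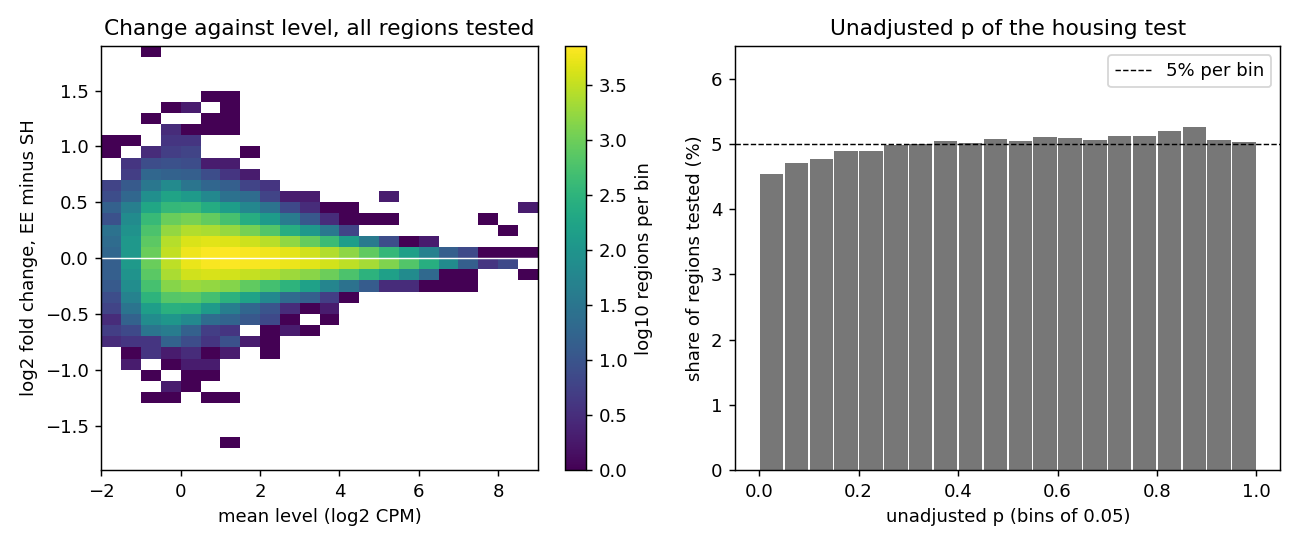
Left, log2 fold change of the tested regions (EE minus SH) against mean level in log2 CPM, coloured by the number of regions per bin on a log10 scale. Right, percent of regions per bin of unadjusted p, with the even share of 5% as a dashed line: the bins hold 4.54% to 5.26%.

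The class of region gave small, opposite offsets. Promoter regions, those within 1 kb of the start of a protein-coding gene, had a median log2 fold change of -0.03 over 14088 regions, which was -0.0090 with an offset fitted to the mean level. Of them, 0.64% were higher and 1.91% lower at an unadjusted p under 0.05, beside 2.61% and 1.92% over all regions, and with the fitted offset these shares were 0.75% and 1.06%. Their intervals lay within 1.5-fold for 97.1% of regions. Regions inside genes, 107719 in all, had 2.06% higher and 2.199% lower. Intergenic regions within 100 kb of a gene start (38768) had 3.29% higher and 1.52% lower, and those farther away (32259) had 4.52% higher and 1.48% lower with a median of 0.03. Without SH replicates 5 and 6, 7.38% of promoter regions, 4.42% of regions inside genes and 8.19% of broad regions (3 kb or more) were lower, and 9.85% of far intergenic regions were higher, beside 4.50% higher and 3.81% lower of all regions, so these 2 libraries move the shares. Broad regions, which cover the most open gene starts, had 0.86% higher and 2.85% lower over 9929 regions, and their median of -0.03 became 0.0018 with the fitted offset. The share of counts in each class did not differ between groups beyond the spread of the libraries. The nearest was the near intergenic share, 16.5% ± 0.085 (SD, n = 6) in EE and 16.4% ± 0.127 (SD, n = 7) in SH (exact permutation test, two-sided, p = 0.0554, adjusted p = 0.417 over 11 measures). The share in promoter regions was 23.9% ± 0.659 in EE and 24.3% ± 0.434 in SH (p = 0.256 by the exact permutation test, adjusted p = 0.564).

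**Figure D2:**
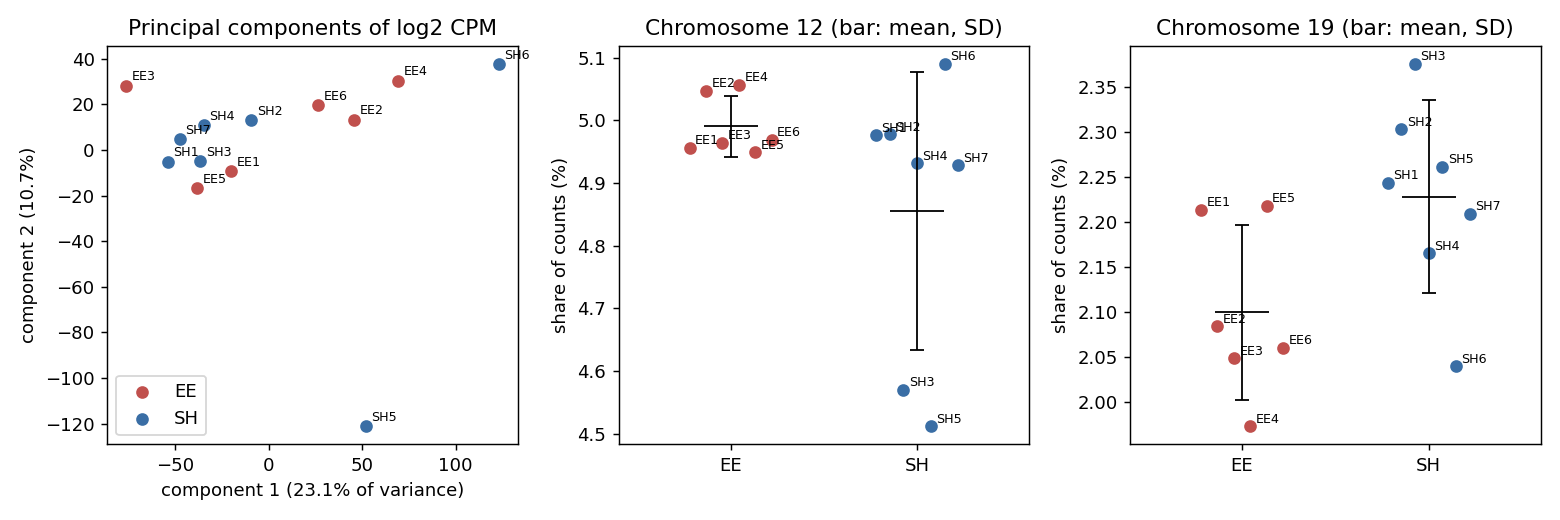
First and second principal component of log2 CPM for the 13 libraries, and the share of each library's counts on chromosomes 12 and 19 in percent, by group (points: libraries; bars: mean and SD). SH replicates 6 and 5 lie apart on the components, and SH replicates 3 and 5 have the lowest chromosome 12 shares, 4.57% and 4.51%.

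Promoters of activity-regulated genes differed by less than 1.5-fold between the groups. Of 23 promoter regions of 22 immediate early genes, 0 were higher and 0 lower at an unadjusted p under 0.05, 8 had a positive log2 fold change, and the median was -0.0055. The confidence interval lay within 1.5-fold at each of the 23. The Fos promoter, which encodes a subunit of the AP-1 factor, had 21.1, 26.5 and 39.4 CPM as the lowest, median and highest EE value and 19.1, 27.3 and 32.4 CPM in SH, a log2 fold change of 0.05 ± 0.16 (SE). Npas4, a factor induced by calcium influx in neurons, had 18.7 to 48.2 CPM in EE and 17.8 to 38.7 CPM in SH (-0.07 ± 0.23). Arc, a regulator of glutamate receptor trafficking, stood at 0.02 ± 0.19, and Egr1, a zinc finger factor, at 0.02 ± 0.16. Bdnf, the ligand of TrkB, had 80.9 ± 11.1 CPM in EE and 84.8 ± 10.8 CPM in SH (-0.07 ± 0.09), and none of the 30 promoter regions of the delayed activity-regulated genes reached an unadjusted p under 0.05.

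Levels at these promoters varied between single libraries in both groups. At the Nr4a1 promoter, an orphan nuclear receptor of the immediate early class, EE libraries ran from 28.8 to 84.0 CPM and SH libraries from 32.4 to 69.9 CPM. EE replicate 3 was the highest library at 16 of the 23 immediate early promoter regions, and SH replicate 5 was the lowest at 8. The ratio of the highest to the lowest library had a median of 1.72 over the 23 regions, beside 1.38 over the 24 promoter regions of clock genes. EE replicate 3 also had the highest share of counts in promoter regions, 25.0%, and the part of that share in these values was not tested. Without EE replicate 3 the median over the 233 regions nearest to immediate early genes was -0.08, against -0.03 with it.

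The promoters that carry these values were matched to RefSeq sequence (GRCm38.p6), which shows the binding letters behind the lists: the cyclic AMP response element bound by CREB (TGACGTCA), the EGR site (GCGNGGGCG) and the clock E-box (CACGTG), each searched on both strands. The lines give the first 250 bases of each RefSeq promoter window, 5′ to 3′ on the gene's strand, with matched letters in capitals. Btg2 and Dusp1 are immediate early genes with a cyclic AMP response element, Per1 is a clock and activity gene with an E-box, and Tle4 is the promoter with the smallest p among the deep-layer markers. The windows lie at chr1:134079106-134079405 (minus strand), chr17:26508423-26508722 (minus), chr11:69098699-69098998 (plus) and chr19:14598134-14598433 (minus).
Btg2: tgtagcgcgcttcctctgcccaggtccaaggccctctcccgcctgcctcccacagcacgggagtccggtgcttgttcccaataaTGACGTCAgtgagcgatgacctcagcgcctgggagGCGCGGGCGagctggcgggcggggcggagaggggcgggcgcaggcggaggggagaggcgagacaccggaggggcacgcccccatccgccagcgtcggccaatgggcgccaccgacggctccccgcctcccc
Dusp1: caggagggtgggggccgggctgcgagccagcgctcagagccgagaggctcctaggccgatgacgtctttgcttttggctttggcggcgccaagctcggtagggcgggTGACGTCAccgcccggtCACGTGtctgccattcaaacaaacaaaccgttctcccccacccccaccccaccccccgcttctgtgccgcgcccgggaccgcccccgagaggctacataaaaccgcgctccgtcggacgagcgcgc
Per1: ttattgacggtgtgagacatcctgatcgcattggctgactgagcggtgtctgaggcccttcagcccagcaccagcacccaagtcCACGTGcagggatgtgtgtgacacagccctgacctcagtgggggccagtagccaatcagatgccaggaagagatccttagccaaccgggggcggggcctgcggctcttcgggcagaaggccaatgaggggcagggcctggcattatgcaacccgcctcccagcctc
Tle4: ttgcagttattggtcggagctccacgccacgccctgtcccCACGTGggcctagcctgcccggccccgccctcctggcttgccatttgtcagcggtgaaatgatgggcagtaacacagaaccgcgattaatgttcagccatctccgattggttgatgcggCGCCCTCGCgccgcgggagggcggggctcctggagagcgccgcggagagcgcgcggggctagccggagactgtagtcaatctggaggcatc

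The region over the Btg2 window had a log2 fold change of -0.03 ± 0.16 and that over the Dusp1 window 0.09 ± 0.15. Per1 stood at -0.02 ± 0.17, with 47.6 to 86.1 CPM in EE and 42.8 to 74.7 CPM in SH. The cyclic AMP response element was in 1.79% of all 32851 RefSeq promoters, and the 399 tested regions over a promoter with it had a median of -0.03, with 0.75% higher and 1.25% lower. Regions over promoters with the E-box (7.15% of promoters; 1369 regions) had 0.29% higher and 1.68% lower, and those with the EGR site (5.55%; 1428 regions) 0.42% and 2.03%. The AP-1 site TGANTCA was in 7.81% of promoters (803 regions, 1.37% higher and 1.87% lower). The MEF2 site (303 regions) had 1.32% higher and 1.98% lower, and the serum response element (192 regions) 0.52% and 0%. All 12881 regions over a RefSeq promoter had 0.72% higher and 1.89% lower with a median of -0.03. The AP-1 and MEF2 groups thus had a larger higher share than that background, resting on only 11 and 4 regions. The E-box and EGR groups had a smaller one, with 4 and 6 regions. These differences were not tested. A match is a run of letters, not a bound site, and a promoter can hold more than one of the motifs.

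Clock gene promoters also had close levels in the groups. None of their 24 regions reached an unadjusted p under 0.05, 11 were positive and the median was -0.0076. At the promoter of Arntl, the BMAL1 partner of CLOCK, EE libraries had 18.8 to 26.8 CPM and SH libraries 20.6 to 25.2 CPM. Per2, a repressor of that pair, stood at 0.03 ± 0.07, Nr1d1, a nuclear receptor that represses Arntl, at 0.04 ± 0.14, and Dbp, an output factor of the clock, at -0.01 ± 0.17. Among the 17 promoter regions of glucocorticoid-responsive genes, 1 was higher at an unadjusted p under 0.05, Plekhf1 with 1.27 ± 0.22 CPM in EE and 0.98 ± 0.14 CPM in SH (0.37 ± 0.16). Fkbp5, a chaperone of the glucocorticoid receptor, stood at 0.12 ± 0.13. Of 67 promoter regions of chromatin regulators, 0 were higher and 7 lower at that threshold, beside 0.64% and 1.91% of all promoter regions. The 7 were those of the cohesin subunits Smc3 (-0.19 ± 0.06) and Rad21, the remodelling subunits Smarca2, Arid2 and Arid1b, and the histone modifiers Kat2a and Kmt2c, and none passed after adjustment. They are named after their values were seen.

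The clearest local pattern lay inside Ntrk2, which encodes the BDNF receptor TrkB, on the plus strand of chr13:58806569-59133970. The region with the smallest p of the whole table, chr13:58969843-58971287, lies 164 kb into the gene. Its EE libraries had 1.02, 1.45 and 1.72 CPM as the lowest, median and highest value, and its SH libraries had 2.03, 2.45 and 3.30 CPM. Each EE library was below each SH library there, and the log2 fold change was -0.89 ± 0.15 with an adjusted p of 0.215 in edgeR's quasi-likelihood test. A second region 23 kb on, chr13:58992863-58994084, had 1.44 to 1.85 CPM in EE and 1.93 to 3.43 CPM in SH (-0.74 ± 0.14, adjusted p = 0.492 in edgeR), again with no overlap of the groups. DESeq2 called both. In edgeR the first region passed without SH replicate 6 (-0.93, adjusted p = 0.0311), with SH replicates 5 and 6 left out together (-0.96, adjusted p = 0.0498), and in no other edgeR setting tried.

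The difference ran over a stretch of the gene. Clusters were sought as 100 kb windows with at least 5 regions at an unadjusted p under 0.01 in one direction, joined where they overlap. The rule was set after the values were seen and picks regions by their p, so its 8 clusters, 7 lower and 1 higher, are descriptions with no test. In Ntrk2 it gave chr13:58948867-59035046, 143 to 228 kb from the start. Of the 43 regions there, 42 had a negative log2 fold change and 32 were lower at an unadjusted p under 0.05, beside 1.92% of all regions, with a median of -0.53. The 54 regions between the start and this stretch had 27 positive and 27 negative values, with 3 higher and 0 lower at that threshold and a median of 0.0017. The 31 regions after it had 27 negative values, 1 of them at the threshold, and a median of -0.09.

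Summed over the stretch, EE libraries had 94.998, 108 and 121 CPM as the lowest, median and highest value, and SH libraries 105, 145 and 165 CPM. Of the 7 SH libraries, 6 were above all EE libraries, and the exception was SH replicate 6. The ratio of the means was 0.759, between 0.728 and 0.780 with each library left out and 0.733 without SH replicates 5 and 6. The Ntrk2 promoter stood at -0.02 ± 0.08, with 36.7 ± 4.57 CPM in EE and 37.2 ± 4.73 CPM in SH. The counts summed over regions inside the gene gave -0.13 ± 0.07, which did not pass. Ntrk2 nuclear RNA in the male RNA libraries, 6 of EE and 6 of SH, was 974 ± 113 CPM in EE and 957 ± 60.5 CPM in SH (0.03 ± 0.07, adjusted p = 0.945 in edgeR).

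**Figure D3:**
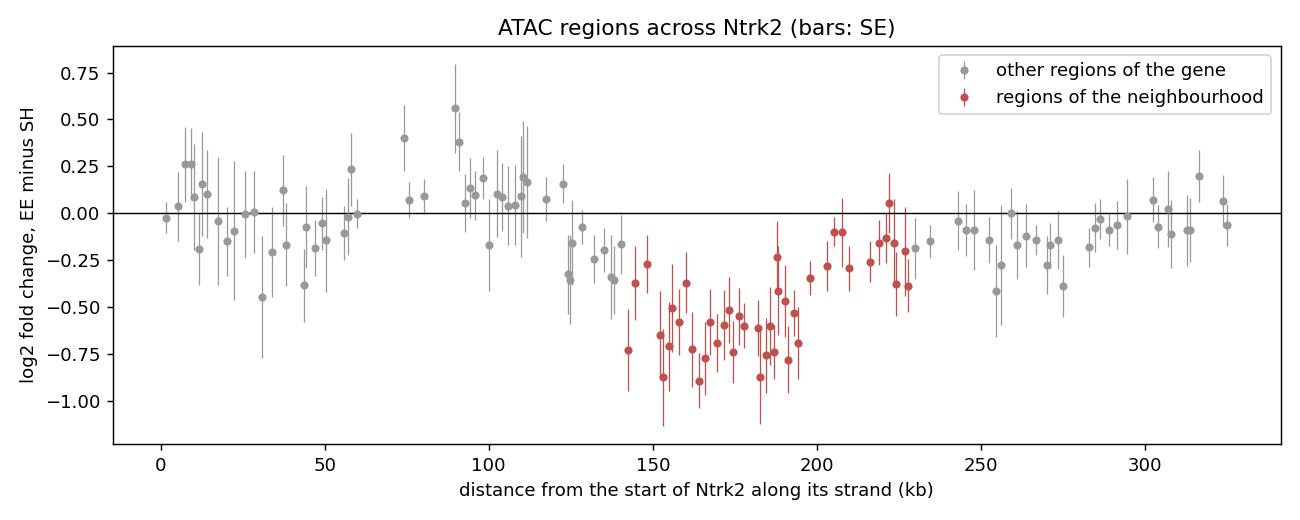
Log2 fold change (EE minus SH) of the 128 regions inside Ntrk2 against the distance from its start in kb, with bars of 1 standard error and the 43 regions of the clustered stretch in red. Of those 43, 42 lie below 0, and the values nearest the start scatter around 0.

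The same stretch was read in the female ATAC libraries, 3 of EE and 3 of SH, which have their own regions and share no library with the males. Sex and whatever else differs between the 2 tables cannot be told apart. Of 29 female regions in the Ntrk2 stretch, 28 had a negative log2 fold change, 8 of them lower and 0 higher at an unadjusted p under 0.05, with a median of -0.37. Such female counts, here and at the other clusters, have no share over all female regions beside them. They come from neighbouring regions, which are not independent, and only describe the stretch. The summed female level was 83.1 ± 9.98 CPM in EE and 109 ± 19.7 CPM in SH, a ratio of 0.761. The exact permutation test gave p = 0.2, and 3 libraries against 3 cannot go below 0.1. The EE libraries had 72.1 to 91.7 CPM and the SH libraries 87.2 to 125 CPM, so the groups overlapped by 1 library.

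Other members of neurotrophic and growth factor signalling did not share the pattern by count. Inside the 32 genes of this list away from starts, 873 regions held 23 higher (2.63%) and 45 lower (5.15%) at an unadjusted p under 0.05. Of all regions inside genes, 2.06% were higher and 2.199% lower. The 127 such regions of Ntrk2 held 3 of the 23 and 33 of the 45. Of the 35 promoter regions, 1 was higher, beside 0.64% of all promoter regions. It was that of the neurotrophin Ntf3 (1.78 ± 0.25 CPM in EE, 1.37 ± 0.29 CPM in SH, 0.34 ± 0.15). Near Gfra1, a GDNF co-receptor, a region 12.6 kb from the start stood at -0.56 ± 0.15, with 1.497 to 2.08 CPM in EE and 1.79 to 3.49 CPM in SH.

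The other lower regions at the head of the list were on chromosomes 7 and 10. On chromosome 7, chr7:112355217-112356015 lies 71.9 kb from the start of Parva, an actin-linked adaptor of integrins, and had 0.97, 1.05 and 1.26 CPM in EE and 1.36, 1.91 and 2.40 CPM in SH (-0.84 ± 0.15, adjusted p = 0.31 in edgeR). The groups did not overlap. A broader neighbour, chr7:112360504-112363747, had 5.21 to 7.70 CPM in EE and 7.39 to 11.8 CPM in SH (-0.61 ± 0.11, adjusted p = 0.31 in edgeR). Both passed in edgeR without SH replicate 6 (adjusted p = 0.0448 and 0.0311) and in DESeq2. They lie in a cluster of 10 regions at chr7:112345117-112369408, partly in Mical2, an actin-oxidising enzyme, in which all 10 values were negative (median -0.60). Its summed level was 22.3 ± 3.48 CPM in EE and 33.0 ± 6.51 CPM in SH, and all 6 female regions there were negative as well (16.7 ± 3.84 and 20.0 ± 3.94 CPM, exact permutation p = 0.2).

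On chromosome 10, the region chr10:14142412-14147898 lies in Hivep2, a zinc finger factor that binds the motif of NF-kappaB, 179 kb from its start. EE libraries had 12.6, 13.7 and 14.2 CPM and SH libraries 16.05, 16.9 and 19.7 CPM. The groups did not overlap, and the log2 fold change was -0.36 ± 0.07 (adjusted p = 0.317 in edgeR). Hivep2 RNA stood at 0.09 ± 0.05 (adjusted p = 0.696 in edgeR), and the overlapping female region at -0.10 ± 0.30. DESeq2 alone called a further lower region, chr11:30101852-30103846 in Sptbn1, which encodes a beta spectrin of the membrane skeleton (-0.33 ± 0.07, adjusted p = 0.0388).

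The regions at the head of the higher direction were far from gene starts. The first, chr16:93428642-93429286, is 175 kb from the nearest start and had 2.19, 2.44 and 2.77 CPM in EE and 1.162, 1.52 and 1.65 CPM in SH. Each EE library was above each SH library, and the log2 fold change was 0.70 ± 0.13 (adjusted p = 0.31 in edgeR, called by DESeq2 at 0.00274). By runs of library numbers in the labels, which the labels do not call batches, it was 0.69, 0.61 and 0.77. A second region on that chromosome, chr16:39146874-39147463, 254 kb from a start, also had no overlap of the groups, with 1.46 to 3.14 CPM in EE and 0.91 to 1.35 CPM in SH (0.78 ± 0.16, adjusted p = 0.698 in edgeR). The regions chr2:138140508-138141335 (0.60 ± 0.12) and chr14:124801556-124802193 (0.39 ± 0.08) are 116 and 125 kb from the nearest start. The fifth, chr7:145340931-145341407, is 26.3 kb from Mrgprd, a receptor gene of sensory neurons, with 10.6 to 16.99 CPM in EE and 8.82 to 11.3 CPM in SH (0.45 ± 0.09).

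**Figure D4:**
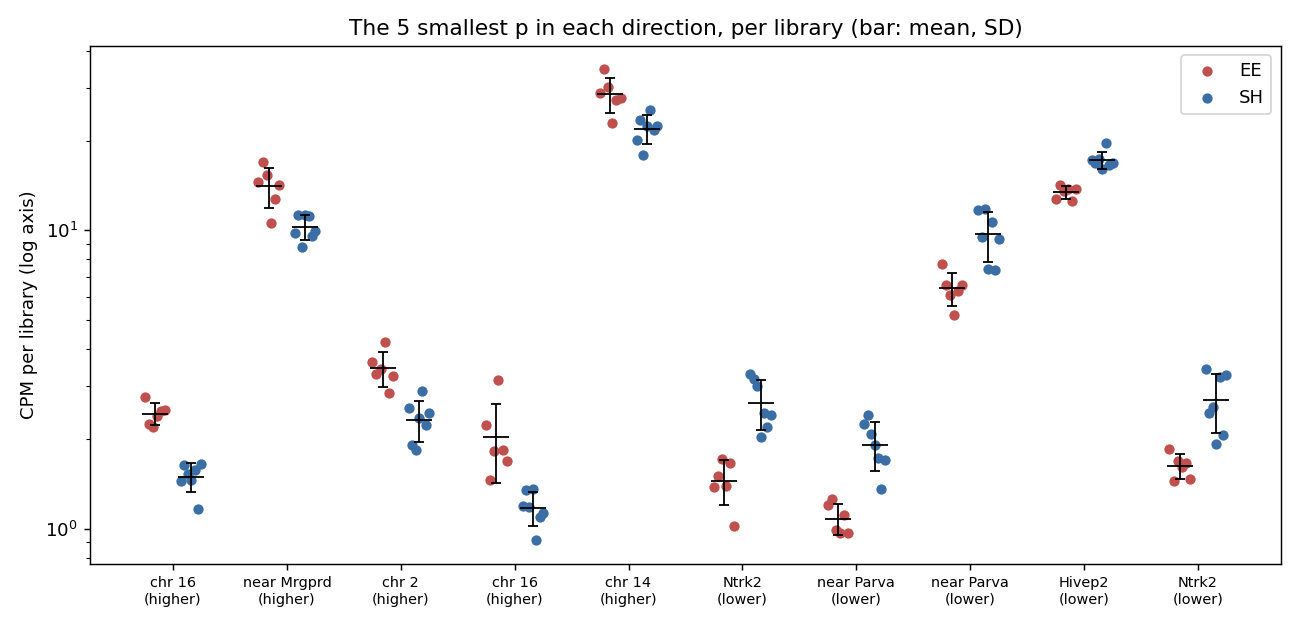
CPM of each library (log axis) at the 10 leading regions, 5 per direction, by group, with mean and SD as bars. The groups do not overlap at 6 of the 10 regions, among them both Ntrk2 regions and the Hivep2 region. The regions were picked by smallest p in these libraries, so separated groups follow in part from that choice.

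Further clusters of lower regions lay in or at 5 other genes. Grin2a encodes a subunit of the NMDA glutamate receptor, and 42 of 44 regions at chr16:9758412-9850501 were negative with a summed level of 140 ± 13.9 CPM in EE and 158 ± 19.0 CPM in SH. In Phactr1, a regulator of actin and protein phosphatase 1, 38 of 39 regions at chr13:42833916-42953871 were negative (319 ± 14.7 and 362 ± 27.5 CPM). In Dlgap1, a scaffold of the postsynaptic density, 28 of 29 at chr17:70549661-70624229 were negative (184 ± 10.5 and 205 ± 7.93 CPM). All 12 regions at chr1:54105227-54139463 in Hecw2, a ubiquitin ligase gene, and all 7 at chr15:69074101-69110184, 4 of them inside Khdrbs3, an RNA-binding splicing regulator, were negative. None of the clusters holds a promoter region. RNA of these genes did not pass the test: Grin2a stood at -0.0032 ± 0.045, Phactr1 at -0.05 ± 0.05, Dlgap1 at 0.03 ± 0.04, Hecw2 at 0.13 ± 0.07 and Khdrbs3 at -0.01 ± 0.06.

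Female libraries gave different answers cluster by cluster. At Phactr1, 79 of 102 female regions were negative and each EE library was below each SH library (446 ± 4.29 and 494 ± 31.1 CPM, exact permutation p = 0.1, the smallest that 3 against 3 allows). At Grin2a, 18 of 23 were negative (110 ± 7.17 and 118 ± 8.11 CPM, exact permutation p = 0.2), and at Dlgap1 the summed levels were 170 ± 5.77 and 168 ± 7.35 CPM (exact permutation p = 1). At Khdrbs3, 16 of 22 were negative (151 ± 13.7 and 165 ± 19.7 CPM, exact permutation p = 0.4). Hecw2 had the opposite sign, with 15 of 16 female regions positive and 87.8 to 90.7 CPM in EE against 68.9 to 72.5 CPM in SH (exact permutation p = 0.1). The difference between the sexes was not tested. Only 1 cluster was higher in EE, chr6:133612396-133702247, with 5 of 5 regions between 1.12 and 1.41 on the log2 scale. Its summed level ran from 5.65 to 18.4 CPM in EE and from 2.81 to 10.1 CPM in SH, so the groups overlapped, and no female region lies there.

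Synaptic gene lists held more lower than higher regions, in part through these genes. Inside genes of the postsynaptic density and glutamate receptors, 2117 regions had a median of -0.05, with 0.61% higher and 4.91% lower, beside 2.06% and 2.199% of all regions inside genes. Of these 104 lower regions, 18 were in Grin2a and 20 in Dlgap1. Inside presynaptic vesicle genes, 1385 regions had 1.01% higher and 4.26% lower, and 26 of these 59 lower regions were in Syt1. Voltage-gated channel genes had 0.66% higher and 2.64% lower over 1816 regions. In Cacna1a, the pore subunit of P/Q-type calcium channels, chr8:84432919-84433509 had 0.80 to 1.33 CPM in EE and 1.498 to 2.09 CPM in SH with no overlap (-0.71 ± 0.15). Without SH replicates 5 and 6 the lower shares were 11.2% inside postsynaptic, 8.81% inside presynaptic and 6.77% inside channel genes, and without SH replicate 6 alone 9.07%, 8.09% and 5.51%, beside 4.42% and 3.51% of all regions inside genes. None of these 3 lists had a region past the adjusted threshold. Regions inside 1 gene share the fragments of that stretch and are not independent, so the shares describe the lists and carry no test.

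Lists of adhesion genes and astrocyte markers held more higher than lower regions. Inside genes of axon guidance and adhesion, 2814 regions had 2.70% higher and 1.00% lower, beside 2.06% and 2.199% of all regions inside genes. Without SH replicates 5 and 6 the adhesion shares were 5.22% and 1.31%, beside 3.11% and 4.42% of all regions inside genes. The same backgrounds apply to the shares inside marker genes that follow. Inside astrocyte marker genes, 192 regions had 7.81% higher and 1.56% lower with a median of 0.04. The 2 astrocyte regions of smallest p by nearest start went opposite ways. Near Sox9, a factor of astrocytes, a region 90.0 kb from the start had 1.38 to 1.93 CPM in EE and 0.35 to 1.34 CPM in SH (0.60 ± 0.19). The other, 93.4 kb from the start of the water channel gene Aqp4 and inside Chst9, had 0.76 to 1.27 CPM in EE and 1.04 to 1.83 CPM in SH (-0.47 ± 0.17). Of the 13 regions in or nearest to Aqp4, 0 were higher and 4 lower, beside 2.61% and 1.92% of all regions. The summed astrocyte promoter level was 143 to 173 CPM in EE and 140 to 163 CPM in SH, so the groups overlapped. Inside genes of the other marker lists, interneuron markers had a median of 0.05 over 197 regions (3.05% higher, 1.02% lower, and 10.2% higher without SH replicates 5 and 6), as high as that of astrocyte markers. The median was 0.04 over 84 regions for oligodendrocyte markers, 0.0051 over 355 for upper-layer markers and -2.3e-04 over 414 for deep-layer markers. Both oligodendrocyte regions of smallest p had negative values, near Cnp, a myelin enzyme (-0.36 ± 0.13), and near Myrf, a myelin gene regulator (-0.21 ± 0.08). Tle4, a co-repressor of deep-layer neurons, had 41.1 to 48.4 CPM in EE and 46.3 to 57.7 CPM in SH at its promoter (-0.19 ± 0.06). It lies, like Smc3, on chromosome 19, where the median was -0.09 and 10.0% of 4265 regions were lower. The chromosome took 1.97% to 2.22% of counts in EE libraries and 2.04% to 2.38% in SH libraries, and the part of this in the Tle4 and Smc3 values was not tested.

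**Figure D5:**
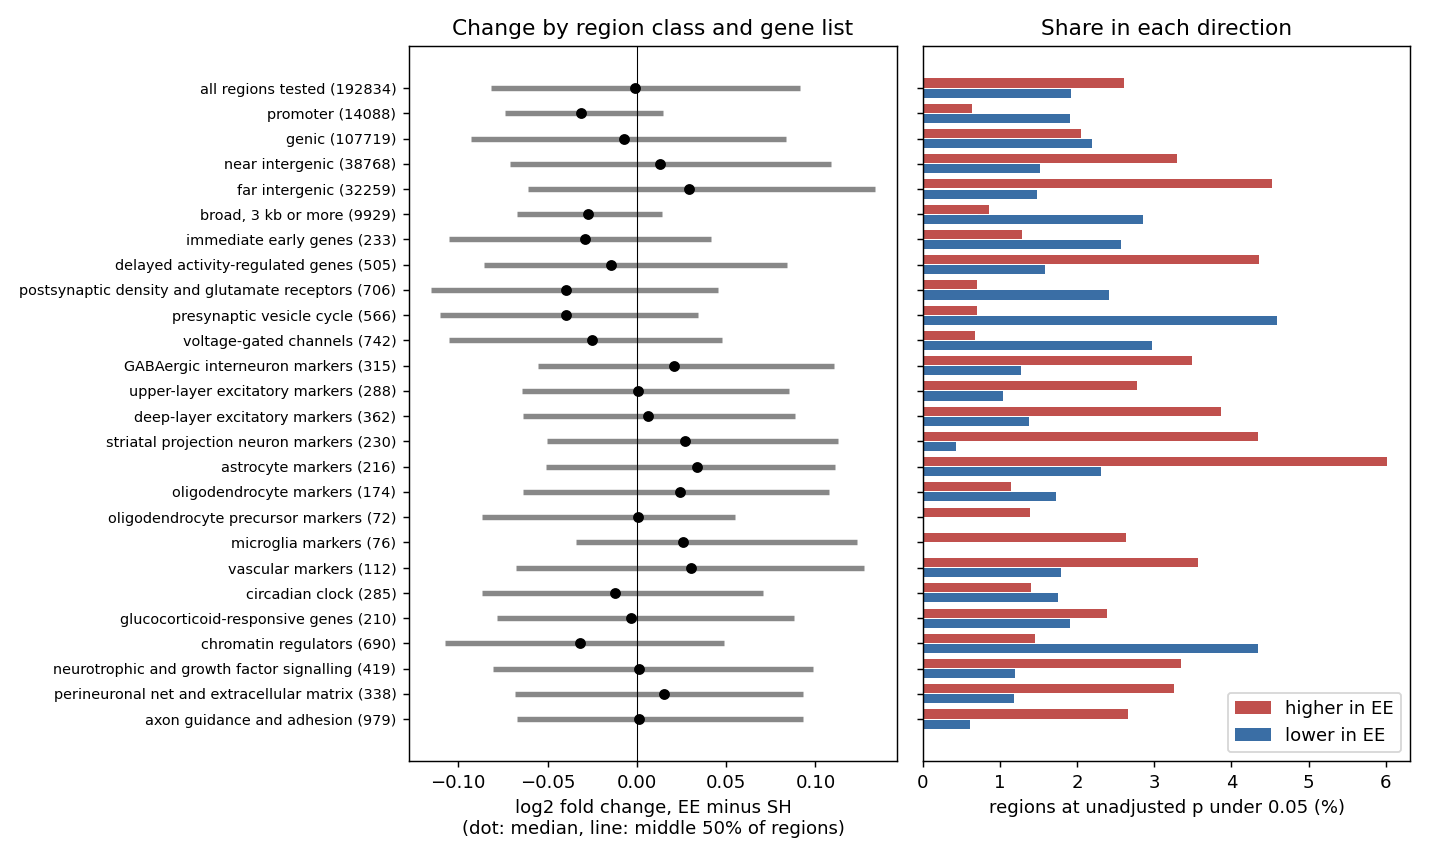
By region class and gene list (number of regions in brackets), left, the median log2 fold change (EE minus SH) as a dot with the middle 50% of regions as a line, and right, the percent of regions at an unadjusted p under 0.05 in each direction. All medians lie between -0.04 and 0.03, and 4.52% of far intergenic regions are higher.

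Summing counts over each gene gave no call either. Of 6918 genes with at least 3 regions inside and away from starts, 0 (0%) passed in edgeR and 148 (2.14%) had an unadjusted p under 0.05. That number was 338 (4.89%) without SH replicate 6, 98 (1.42%) without SH replicate 3 and between 101 and 205 with each other library left out. Dlgap1 (-0.09 ± 0.03) and Syt1 (-0.08 ± 0.04) were among the 148.

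No promoter region of the genes whose nuclear RNA differed between the housings reached an unadjusted p under 0.05. The promoter values below have SEs of 0.07 to 0.09, so small differences there could be missed. Their sign was that of the RNA at Lypd1 and the opposite at Arntl, Pcdh11x and Trps1. In the male RNA libraries, 6 of 14597 genes (0.0411%) passed in edgeR. The RNA of Arntl was 141 ± 5.31 CPM in EE and 120 ± 5.36 CPM in SH (0.22 ± 0.04, adjusted p = 0.0316 in edgeR), while its promoter stood at -0.0023 ± 0.074. Its 39 regions held 0 higher and 2 lower. Over all regions, the background for the counts in this paragraph, 2.61% were higher and 1.92% lower. Pcdh11x, an adhesion protocadherin, had RNA at 0.33 ± 0.05 and its promoter at -0.08 ± 0.07. Trps1, a GATA-type repressor, had RNA at 0.26 ± 0.04 and its promoter at -0.07 ± 0.09, and Lypd1, a modulator of nicotinic receptors, had RNA at -0.28 ± 0.05 and its promoter at -0.09 ± 0.07. Robo3, an axon guidance receptor, had 6 regions with 0 higher and 0 lower, 2 of them promoter regions. Vmn2r85, a vomeronasal receptor gene, had no region, so its promoter was not measured. Across 9489 genes with 1 promoter region, the signs of the RNA and ATAC fold changes agreed for 49.4% (Spearman's rho 0.014, a description across genes, which are not replicates). Spred1, a feedback inhibitor of ERK signalling, had 8 of 34 regions higher and 0 lower at an unadjusted p under 0.05. Those 34 regions are neighbours and not independent, and the count was not tested. Spred1 RNA stood at 0.29 ± 0.11, which did not pass (adjusted p = 0.532 in edgeR).

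At the scale of the table, male and female fold changes were nearly unrelated. Of the tested male regions, 111333 (57.7%) overlapped a female region, and the sign was the same for 52.7% of these. Among the 4485 with a male unadjusted p under 0.05 it was the same for 56.3%, and among the 91 under 0.001 for 63.7%. With at least 50% of the male region covered, the shares were 53.4% of 50508, 55.3% of 1779 and 52.4% of 42, so the share did not rise with smaller p there. Spearman's rho of the fold changes did rise, from 0.069 to 0.142 and 0.394 with any overlap. With 50% covered it was 0.064, 0.132 and 0.305. These are descriptions across regions, which are not replicates. Female libraries had 78 of 164926 regions called (0.0473%) in edgeR. Of these, 65 overlapped a male region, where 29 had the same sign. In the males 3 of the 65 reached an unadjusted p under 0.05, beside 4.53% of all male regions tested.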

How the data were processed

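The male ATAC libraries and, for comparison, the male RNA and female ATAC libraries were used. Values are whole-number read counts as deposited, per region for ATAC and per gene for RNA, and show no normalization by the authors. Per the submitters' processing notes, the build was mm10, and the tools named are MACS2 2.1.1, DiffBind 3.2.2, STAR 2.5.4, bedtools, SAMtools 1.3.1, DESeq2 1.16.1 and edgeR. The read counter, read filters, merging of regions and any shift of the insertion sites are each not given in the sources used here, nor is the base (0 or 1) of the start coordinates, which follow the tables. The names of the RNA columns were matched by position because the header is 1 name short.

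Housing was tested per table with the robust quasi-likelihood F test of edgeR 4.0.16 (R 4.3.3), after TMM scaling and its default filter on low counts, with p adjusted by Benjamini-Hochberg over all regions or genes. Regions not tested numbered 85. Levels are CPM, given as mean ± SD, and each SE was taken as the absolute log2 fold change over the root of F. Alternatives used DESeq2 1.42.0, limma 3.58.1 and sva 3.50.0, and the script was tested on simulated data. Regions were assigned to the nearest start within 100 kb of 21350 protein-coding genes. Replicate pairs of a group differed by more than sampling noise, with a chi-square per degree of freedom of 2.67 to 8.20. Named regions were the 5 of smallest p per direction, as none was called, and the 2 of smallest p for each of 20 gene lists. Genes and promoters outside that rule, such as Plekhf1, Ntf3, Nr4a1 and the chromatin regulators, were named after their values were seen. The result for 1 region that the rule chose is not reported here. The comparison and the lists were chosen with earlier results of these data known, and clusters were defined after values were seen. Same-numbered replicates were not treated as pairs in the main test.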

Additional observations from a re-analysis of the deposited data

Results flagged for a closer look

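Single libraries lay far from the rest of their group in 10 of 140 groups examined (7.14%), where chance gives about 1 in 20. Among library measures, SH replicate 1 had 27.1% of counts in broad regions, against 27.5% to 27.9% in the other SH libraries, and SH replicate 5 had -121 on the second principal component, against -5.24 to 37.6. SH replicate 6 was lowest at chr16:93428642-93429286 (1.162 CPM, others 1.44 to 1.65), highest at the region near Tiparp, chr3:65592798-65593074 (1.36 CPM, others 0.57 to 0.84), and lowest at the region near Sox9, chr11:112691993-112692386 (0.35 CPM, others 0.97 to 1.34). SH replicate 5 was highest at the Hivep2 region (19.7 CPM, others 16.05 to 17.4). EE replicate 4 was highest at a region near Sall1, chr8:88948598-88949364 (2.11 CPM, others 1.47 to 1.71), and EE replicate 3 at one in Zbtb16, chr9:48753706-48754630 (4.50 CPM, others 3.11 to 3.36). In the clusters, SH replicate 4 was highest at chr6:133612396-133702247 (10.1 CPM, others 2.81 to 5.40) and EE replicate 2 at Khdrbs3 (157 CPM, others 138 to 144).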

How the results depend on the processing

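The count of called regions was 0 with limma-voom, other scalings, other count filters, thinning, a covariate for runs of library numbers and a surrogate variable. DESeq2 called 7 regions, 1 higher and 6 lower. Leaving out SH replicates 5 and 6 together, an alternative chosen after seeing the data, gave 2, with 2 lower. With each library left out in turn the count ranged from 0 to 3, with 0 to 0 higher and 0 to 3 lower, and the 3 came without SH replicate 6. With the replicate block the count was 1, with 1 higher, in Mid1 (chrX:169974562-169976556, 0.76, adjusted p = 0.039 in edgeR). Same-numbered libraries correlated between -0.10 and 0.17, and the best SH match had the same number for EE replicates 1 and 6 only. These correlations cannot settle whether the numbers pair the samples. The share of regions at an unadjusted p under 0.05 ran from 3.73% without EE replicate 6 to 8.31% without SH replicates 5 and 6. All 1297 values of the 50 named regions kept their direction, and 11 of them, in 6 regions, passed. These regions were picked by small p in the same libraries, so a kept direction is largely given by that choice. The near and far intergenic medians stayed positive and the promoter median negative in 27 of 27 settings, with a promoter median between -0.05 and -0.0090, while the median inside genes was 0.0041 with total-count scaling. Shallow regions limit the precision: in the lowest 25% of levels 61.1% of intervals lay within 1.5-fold, against 99.4% in the highest 25%.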

Other observations

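Medians differed between chromosomes. Chromosome 12 had a median log2 fold change of 0.04 over 9249 regions, with 5.36% higher and 0.86% lower at an unadjusted p under 0.05. SH replicates 3 and 5 had 4.57% and 4.51% of their counts there, against 4.93% to 5.09% in the other libraries, and the median was 0.02 without SH replicate 3 and 0.03 without SH replicate 5. On chromosome 19 the median was -0.09, between -0.11 and -0.08 with each library left out and -0.10 without SH replicates 5 and 6, and the other autosomes lay between -0.03 and 0.02.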
